A study of Mus musculus with 72 samples.

Results

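Livers taken at zeitgeber time 16 (ZT16, hours after lights on in a 12 h light and 12 h dark cycle), in the early active and feeding phase of a nocturnal animal, were compared between mice labelled as liver-specific SIRT6 knockouts (KO) and wild-type (WT) mice of the same cohort. The 6 arrays were chosen by their labels alone, 3 per genotype, out of 72 arrays in the series. All 6 samples, like the rest of their cohort, carried the strain label 129 mixed, and the tissue was whole flash-frozen liver. The 30 arrays of the same cohort at ZT0, 4, 8, 12 and 20 and the 6 arrays of a second cohort, SIRT1 liver knockouts and their own WT at ZT16 with the strain label C57BL/6, served for comparison. Strain and cohort cannot be told apart. The labels leave unstated the promoter that drives the deletion, the age of the mice and whether each replicate was another mouse. The p-values therefore measure only the spread among these samples, which may be technical. In whole liver, fewer cells of a type and less RNA per cell cannot be told apart.

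SIRT6 is a chromatin-bound, NAD-dependent deacylase that removes acetyl groups from histone H3 and is known to restrain glycolytic, lipid and inflammatory gene programmes. In liver it is known to meet the clock proteins CLOCK and BMAL1 at E-boxes and to limit SREBP1, the transcription factor that turns on fatty acid synthesis after feeding. ZT16 lies in the phase in which mouse liver receives food, so that insulin, SREBP1 and protein-folding programmes are normally active then.

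Levels below are log2(intensity + 16) of 1 probe set per gene, and differences are KO-labelled minus WT on that scale, with the standard error (SE) of the fit. Of 22180 genes, the 13308 with the higher mean levels were tested with limma, and a gene passed at an adjusted p below 0.05 after Benjamini-Hochberg adjustment, made jointly for the genes and the 6 times. Precision is limited by the number of arrays.

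The Sirt6 probe set itself was not lower in the arrays labelled KO. Its level was 7.40, 7.60 and 7.10 in the WT arrays and 8.07, 7.99 and 7.93 in the KO-labelled arrays, a difference of 0.63 ± 0.12 (SE, n = 3 per group, limma adjusted p = 0.025). No KO-labelled array reached down to a WT array. The labels do not place the probes relative to the deleted part of the gene, so the value does not check the labels, and every direction below rests on the labels. The arrays are therefore called KO-labelled throughout.

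The 6 arrays did not group by genotype. The WT and KO-labelled arrays numbered 3 correlated with each other at 0.984 over the tested genes, and with WT arrays 1 and 2 at 0.940 to 0.952. WT array 1, WT array 2 and KO-labelled array 1 correlated at 0.983 to 0.988 with one another. Both arrays numbered 3 lay below the other 4 in 3594 genes (27.0%) and above them in 1168 (8.78%). Leukocyte markers moved with this split: 9 of 10 lymphocyte markers and 12 of 14 Kupffer cell and macrophage markers were lower in both arrays numbered 3 than in the other 4. The summed intensity of the lymphocyte markers was 2775, 5252 and 908 in the WT arrays and 3089, 2211 and 1015 in the KO-labelled arrays. That of the Kupffer cell markers was 17611, 19902 and 7887 in WT and 14171, 12084 and 7598 in KO-labelled arrays. The same held for 17 of 20 cell cycle genes and 10 of 12 stellate cell markers. The mean level of the hepatocyte markers was 12.31, 12.33 and 12.44 in WT and 12.35, 12.39 and 12.43 in KO-labelled arrays, highest in both arrays numbered 3. In 3 of 11 hepatocyte markers both arrays numbered 3 were above the other 4, and in 0 below them.

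Few genes were called different between the genotypes at ZT16, and all those called were higher in the KO-labelled livers. 13 of 13308 genes (0.0977%) passed the threshold, 12 named and 1 predicted, with differences from 0.52 to 1.92, and in each of them the 3 KO-labelled arrays lay above the 3 WT arrays. None passed in the lower direction, where the limma fit gave 185 genes (1.39%) an unadjusted p below 0.05, against 389 (2.92%) in the higher direction. Together these were 574 genes (4.31%). The KO-labelled arrays lay wholly above the WT arrays in 4.43% of genes and wholly below them in 2.96%, and 0.932% differed by at least 1.5-fold in each direction. The median difference over all tested genes was -0.01, with a 5th percentile of -0.30 and a 95th of 0.27. With the replicate number as a block, which pairs KO-labelled with WT arrays within each time, 20 genes passed (0.15%), 18 higher and 2 lower, and 6.46% had an unadjusted p below 0.05. 12 of the 13 were among the 20, and Fam81a was not. With the block at ZT16 alone, a setting chosen after seeing the data, 15 genes passed, all 15 higher and all 13 among them. Without the block the count fell to 3 without KO-labelled array 2, to 7 without WT array 1 and to 4 (0.0301%) without both arrays numbered 3.

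**Figure D1:**
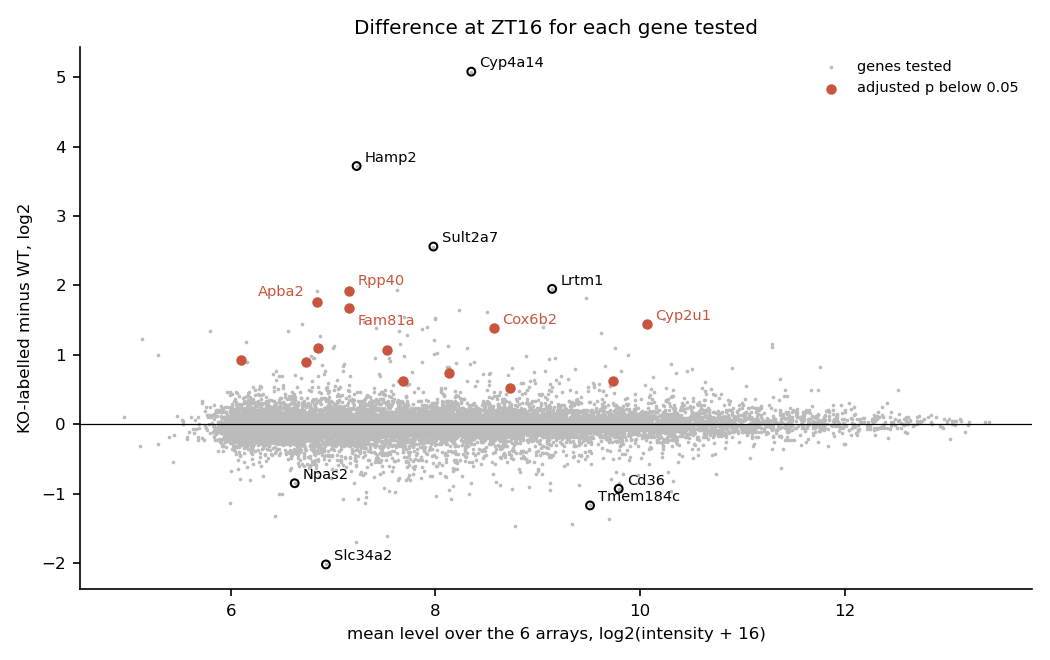
Each grey point is 1 of the 13308 genes tested, with its mean level over the 6 ZT16 arrays on the horizontal axis and its difference, KO-labelled minus WT, on the vertical axis, both on the log2 scale. The filled points are the 13 genes past the threshold, all above 0; open circles mark genes of large difference, such as Cyp4a14 at 5.08, that did not pass.

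Cox6b2 and Rpp40 were called with any 1 of the 6 arrays left out, and no other gene was. Cox6b2 (probe set 17485904) encodes the testis-type isoform of a subunit of cytochrome c oxidase, the last complex of the respiratory chain. Its level was 7.86, 7.77 and 8.00 in WT and 8.91, 9.44 and 9.41 in KO-labelled arrays. The difference was 1.38 ± 0.21 (SE, n = 3 per group), or 2.60-fold, with a limma adjusted p of 0.0035. The lowest KO-labelled array stood 0.91 above the highest WT array. Rpp40 (17291854) encodes a protein subunit of ribonuclease P, the enzyme that trims transfer RNA precursors. Its WT arrays lay close together at 6.13, 6.22 and 6.24, and its KO-labelled arrays were spread at 7.37, 8.75 and 8.24. The rise was 1.92 ± 0.31, or 3.79-fold (limma adjusted p = 0.0054), and it was the largest among the 13 genes. Without both arrays numbered 3 the adjusted p was 0.024 for Cox6b2 and 0.055 for Rpp40.

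Promoters are shown for Cox6b2 and Rpp40, the 2 genes that kept their call with any 1 array left out, and for Tceal1, the 1 gene of the group with an E-box in its promoter window. The sequences come from RefSeq, build GRCm38.p6, and run from 250 bases before to 50 after the annotated start; 9 of the 12 named genes matched that table. CACGTG, the E-box that CLOCK and BMAL1 bind, is in capitals. The windows are chr7:4753045-4753344 on the minus strand for Cox6b2, chr13:35906298-35906597 on the minus strand for Rpp40 and chrX:136707732-136708031 on the plus strand for Tceal1.
Cox6b2: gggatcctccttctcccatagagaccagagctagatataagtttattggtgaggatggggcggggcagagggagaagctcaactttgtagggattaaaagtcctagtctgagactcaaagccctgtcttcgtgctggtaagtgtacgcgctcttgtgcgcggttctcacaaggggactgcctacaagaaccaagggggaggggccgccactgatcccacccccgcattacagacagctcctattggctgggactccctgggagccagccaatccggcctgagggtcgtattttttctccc
Rpp40: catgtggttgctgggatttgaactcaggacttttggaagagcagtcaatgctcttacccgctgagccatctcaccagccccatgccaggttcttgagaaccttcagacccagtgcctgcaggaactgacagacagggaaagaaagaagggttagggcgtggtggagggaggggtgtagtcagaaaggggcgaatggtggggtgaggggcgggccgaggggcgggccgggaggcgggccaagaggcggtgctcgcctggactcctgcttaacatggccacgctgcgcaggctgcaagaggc
Tceal1: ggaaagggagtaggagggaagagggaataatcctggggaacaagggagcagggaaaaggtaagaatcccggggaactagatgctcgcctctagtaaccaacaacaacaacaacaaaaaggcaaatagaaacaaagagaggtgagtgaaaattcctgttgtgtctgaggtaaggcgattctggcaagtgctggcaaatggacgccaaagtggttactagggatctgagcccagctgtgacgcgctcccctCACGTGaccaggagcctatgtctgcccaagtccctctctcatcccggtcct
The E-box CACGTG, which reads the same on both strands, is found in 7.15% of all 32851 promoter windows of this length and in 1 of the 9 matched genes. Its shorter core ACGTG, searched on both strands and contained in the E-box, is found in 19.6% of windows and in Sirt6 and Tceal1. AGGTCA, the half-site of many nuclear receptors, is found on either strand in 16.3% of windows and in none of the 9 genes. The percentages count each window, whereas a gene counts as 1 if any of its windows holds the motif. Apba2 and Sirt6 have more than 1 window, so the 2 measures are not alike.

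Qpct (17339876), the glutaminyl cyclase that forms pyroglutamate at the start of peptides, was at 7.03, 7.18 and 6.77 in WT and 7.90, 8.10 and 8.18 in KO-labelled arrays. It rose by 1.07 ± 0.18 (SE, n = 3 per group, limma adjusted p = 0.0077). Sat2 (17251677), of the diamine acetyltransferase family, was at 7.54, 7.83 and 7.91 in WT and 8.23, 8.72 and 8.56 in KO-labelled arrays, a rise of 0.74 ± 0.13 (limma adjusted p = 0.0065). In both genes the KO-labelled arrays were above every WT array, by 0.72 for Qpct and 0.33 for Sat2. Cyp2u1, a cytochrome P450 that hydroxylates fatty acids, is counted among the genes more active in male liver. It was at 8.79, 9.25 and 10 in WT and 10.58, 10.81 and 10.96 in KO-labelled arrays, a rise of 1.44 ± 0.28 (limma adjusted p = 0.029). Its WT array 3 was nearest to the KO-labelled arrays, and without both arrays numbered 3 the difference was 1.68.

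The other named genes past the threshold had rises from 0.52 to 1.76. Zwint (17234192), a kinetochore protein, was at 9.42, 9.50 and 9.33 in WT and 10.01, 10.18 and 9.97 in KO-labelled arrays, a rise of 0.63 ± 0.11 (SE, n = 3 per group, limma adjusted p = 0.0094). Cuedc2 (17365369), a ubiquitin-binding protein, had the smallest rise of the 13, 0.52 ± 0.09 (limma adjusted p = 0.0077). Its arrays were nevertheless apart, at 8.48, 8.59 and 8.33 in WT and 8.95, 9.06 and 8.94 in KO-labelled arrays. Efcab2, named for its calcium-binding EF-hand, was at 6.24, 6.59 and 6.04 in WT and 7.03, 7.38 and 7.16 in KO-labelled arrays, a rise of 0.90 ± 0.17 (limma adjusted p = 0.022). Tceal1, an X-linked relative of a transcription elongation factor, was at 5.58, 5.83 and 5.52 in WT and 6.47, 6.66 and 6.56 in KO-labelled arrays, a rise of 0.92 ± 0.19 (limma adjusted p = 0.034). All 3 of its WT arrays lay under the level of 6.00 below which genes were left out by their mean. Apba2, an adaptor known for binding the amyloid precursor protein in neurons, was at 6.31, 6.08 and 5.48 in WT and 7.73, 7.95 and 7.47 in KO-labelled arrays. Its rise of 1.76 ± 0.37 (limma adjusted p = 0.043) was the second largest of the group, and its WT mean of 5.96 also lay under 6.00. Fam81a was at 6.72, 6.61 and 5.62 in WT and 7.50, 8.59 and 7.90 in KO-labelled arrays, a rise of 1.67 ± 0.35 (limma adjusted p = 0.046), and its limma adjusted p was 0.10 with the replicate block at all times and 0.040 with the block at ZT16 alone.

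**Figure D2:**
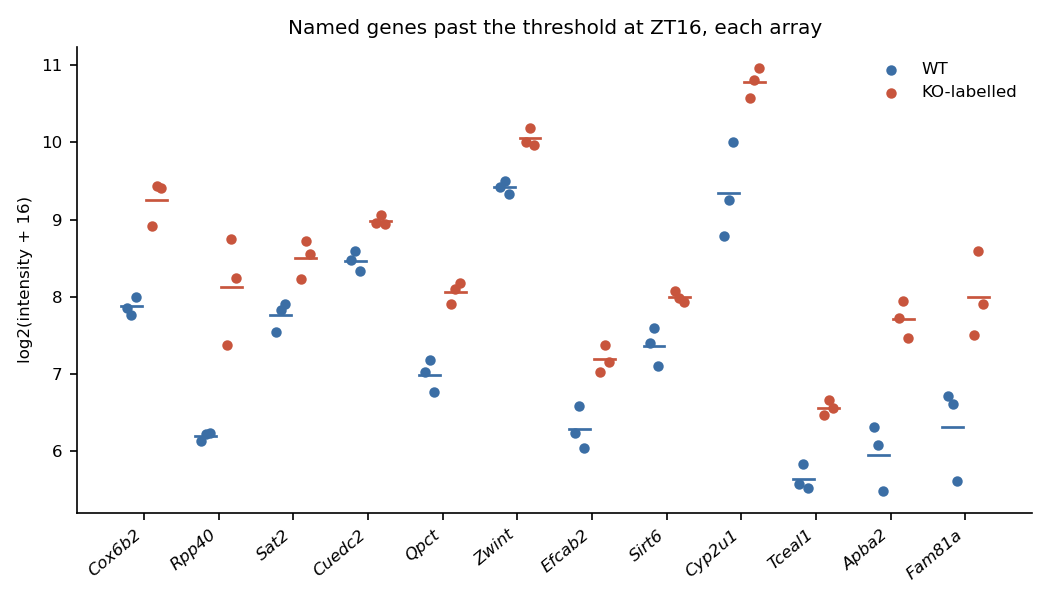
Levels of the 12 named genes past the threshold in each ZT16 array, in log2(intensity + 16); every point is 1 array, 3 WT and 3 KO-labelled per gene, and the short lines are group means. In each gene the lowest KO-labelled array is above the highest WT array, with the widest scatter in Rpp40 and Fam81a.

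The 13 genes were also higher in KO-labelled livers at the other times of day. Over the 30 arrays of ZT0, 4, 8, 12 and 20, all 13 genes passed the threshold in the same direction. The levels of these 30 arrays do not enter the ZT16 differences, but they do enter the choice of the 13. Their spread enters the pooled SE, and the p-values of the other times enter the joint adjustment. With the adjustment over ZT16 alone 10 genes passed, all higher. The 2 comparisons are therefore not independent. In a fit of the 6 ZT16 arrays alone none of the 13 passed. In the comparison over the other 5 times 370 genes (2.78%) were higher and 407 (3.06%) lower, or 212 and 597 with array medians centred. Tceal1 was higher by 1.06 ± 0.09 over these times, Apba2 by 1.98 ± 0.17 and Sirt6 by 0.56 ± 0.05 (SE, 15 arrays per genotype). In 11 of the 13 genes the difference at ZT16 was larger than the mean of the other times, the exceptions being Tceal1 and Apba2. Rpp40 differed by 1.92 at ZT16 and by 0.78 at ZT8, and Sat2 by 0.74 at ZT16 and by 0.37 at ZT4. The test of the ZT16 effect against the mean of the other 5 times called 0 of 13308 genes, with 376 (2.83%) at an unadjusted limma p below 0.05. The smallest adjusted p of that test was 0.998. Rpp40 and Sat2, with excesses of 0.72 ± 0.34 and 0.29 ± 0.14 at ZT16, were the 2 of the 13 among these 376. The 13 were chosen by their ZT16 differences, which favours larger values at ZT16. The 11 of 13 and these 2 excesses therefore do not bear on whether an effect is particular to ZT16.

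**Figure D3:**
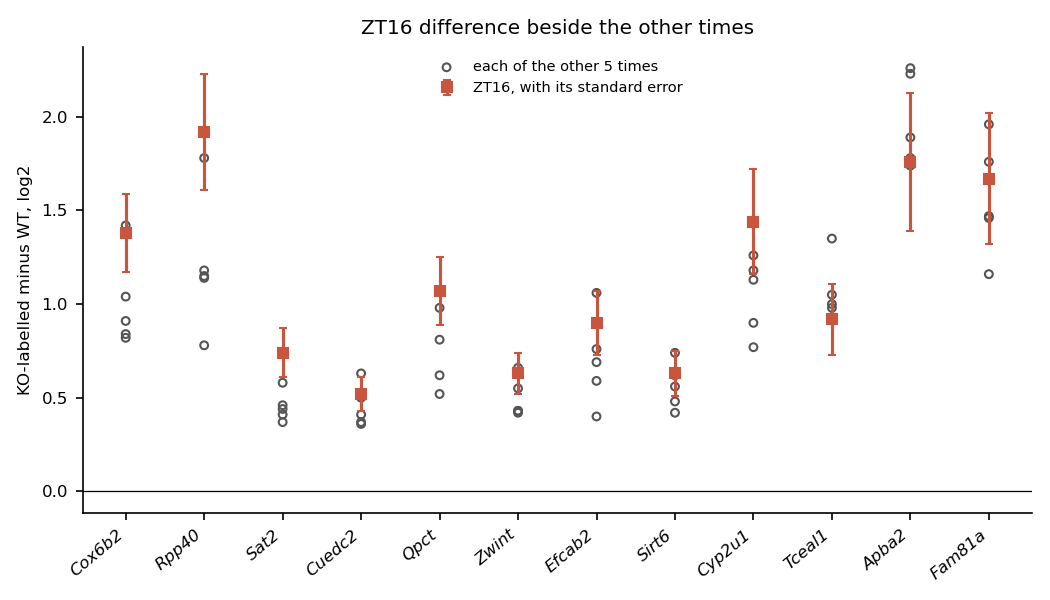
Difference, KO-labelled minus WT, in log2 units for the 12 named genes: squares are ZT16 with the standard error of the fit, open circles the other 5 times, each from 3 arrays per genotype. Every point is above 0, and for Rpp40 the ZT16 value of 1.92 tops a range that starts at 0.78. The genes were chosen by their ZT16 difference, which favours larger values there.

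The largest differences at ZT16 were in genes that missed the threshold, led by Cyp4a14, a fatty acid omega-hydroxylase and a classical target of the fasting receptor PPARA. Cyp4a14 was at 5.22, 5.94 and 6.27 in the WT arrays and at 10.40, 10.92 and 11.35 in the KO-labelled arrays. The difference was 5.08 ± 1.41 (SE, n = 3 per group), about 33.8-fold, with a gap of 4.13 between the groups and a limma adjusted p of 0.20. The SE pools the spread over all 12 groups, and Cyp4a14 scattered widely at other times: its SD among 3 arrays was 2.65 in WT at ZT8 and 2.73 in KO-labelled livers at ZT12, against 0.54 and 0.48 at ZT16. In a fit of the 6 ZT16 arrays alone it was the 1 gene past the threshold (limma adjusted p = 0.012). The WT mean was lowest of the day at ZT16, 5.81, and highest at ZT0, 10.38, whereas the KO-labelled mean was highest at ZT16, 10.89. These values over the day are descriptions and were not tested. Against the mean of the other times the ZT16 effect was larger by 4.19 ± 1.54, which did not pass the threshold (limma adjusted p = 1).

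Hamp2, a paralogue of the iron hormone hepcidin, had the next largest difference. It was at 5.15, 5.29 and 5.67 in WT and 8.16, 10.42 and 8.67 in KO-labelled arrays, a difference of 3.72 ± 0.84 (SE, n = 3 per group, limma adjusted p = 0.071). With the replicate block at all times it passed (limma adjusted p = 0.040), and with the block at ZT16 alone it did not (limma adjusted p = 0.085). All 3 WT arrays of Hamp2 and 2 of the 3 of Cyp4a14 lay under the level of 6.00 set for gene means, so that their WT values are dim. Over the other 5 times it was higher by 2.70 ± 0.38 and past the threshold (limma adjusted p = 8.8e-05). Hamp2 and Cyp4a14 belong to families of near-identical genes, whose probes can share signal. Tfrc, the transferrin receptor, was at 7.90, 8.29 and 8.44 in WT and 9.19, 8.44 and 8.87 in KO-labelled arrays (limma adjusted p = 0.71). Of 23 measured hepcidin and iron genes none passed without the block.

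Sult2a7, Lama3, Lrtm1, Ly6f and Cyp2b10 also had large differences with all 3 KO-labelled arrays above the WT arrays. Sult2a7, of the steroid and bile acid sulfotransferases, differed by 2.56 ± 0.86 (SE, n = 3 per group, limma adjusted p = 0.36), from 5.90 to 7.77 in WT and from 9.05 to 9.58 in KO-labelled arrays. Lama3, a laminin chain of the basement membrane, differed by 1.94 ± 0.51 (limma adjusted p = 0.16), with WT arrays from 6.36 to 6.86 and KO-labelled arrays from 7.93 to 9.40. Lrtm1 and Ly6f differed by 1.95 and 1.92 at ZT16. Sult2a7, Lama3, Lrtm1 and Ly6f all passed the threshold over the other 5 times, where they were higher by 2.72, 1.71, 2.04 and 1.79. Cyp2b10, the classical target of the xenobiotic receptor CAR, differed by 1.64 ± 0.76 at ZT16 (limma adjusted p = 0.60) and by 0.74 over the other times, where it did not pass. It does not stand for its list. Of 22 measured drug-metabolism genes of CAR and the related receptor PXR 0 passed. Of these, 15 had the higher KO-labelled mean and 7 the lower, with a median of 0.08 and a lowest difference of -0.83.

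No gene was called lower, and Slc34a2 had the largest lower value without overlap. Slc34a2, a sodium-phosphate cotransporter, was at 8.35, 8.10 and 7.38 in WT and 6.26, 5.47 and 6.03 in KO-labelled arrays, a difference of -2.02 ± 0.59 (SE, n = 3 per group, limma adjusted p = 0.25). Its WT mean was highest of the day at ZT16, 7.94, while its KO-labelled means stayed between 5.63 and 6.19 at all 6 times. Tmem184c differed by -1.17 at ZT16 and by -1.19 over the other times, where it passed the threshold. Capn8, a calpain protease, differed by -1.14, and Gnai1, an inhibitory G protein subunit, by -1.0. Cd36, the fatty acid uptake receptor, was at 10.20, 10.56 and 10 in WT and 9.39, 9.92 and 8.68 in KO-labelled arrays, a difference of -0.93 ± 0.40 (limma adjusted p = 0.56). Its groups were only 0.09 apart at ZT16, yet over the other times it was lower by a similar amount and past the threshold, at -0.90 ± 0.18 (limma adjusted p = 0.0036). Olfm3 and Tc2n differed by -0.92 and -0.80 at ZT16 and by -1.38 and -1.39 over the other times, both past the threshold there. Susd4 differed by -0.90, carried mostly by KO-labelled array 2: its level was 9.44, 9.24 and 9.42 in WT and 9, 7.22 and 9.17 in KO-labelled arrays. Wfdc2 differed by -0.75. Both had an adjusted p above 0.5.

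Of the core clock, Npas2 stood furthest from 0. NPAS2 is the close relative of CLOCK and pairs with BMAL1. Its level was 6.82, 7.71 and 6.63 in WT and 5.85, 6.42 and 6.33 in KO-labelled arrays, a difference of -0.85 ± 0.28 (SE, n = 3 per group, limma adjusted p = 0.35). The groups were 0.20 apart, with every KO-labelled array below every WT array. ZT16 lies between the low WT mean of 5.59 at ZT12 and the high one of 8.87 at ZT20, and at ZT20 the KO-labelled mean was also 8.87. At ZT0 the order was the reverse, at 8.59, 8.88 and 8.39 in WT and 9, 9.19 and 9.2 in KO-labelled arrays. The ZT16 effect differed from that of the other times by -0.95 ± 0.31, which did not pass the threshold (limma adjusted p = 1). Ciart, a repressor of the CLOCK and BMAL1 pair, was at 6.60, 6.69 and 6.82 in WT and 7.08, 7.17 and 7.31 in KO-labelled arrays, a difference of 0.49 ± 0.54 (limma adjusted p = 0.94). Rora, a nuclear receptor that activates Bmal1, differed by -0.10 ± 0.08 (limma adjusted p = 0.85). Of 18 measured core clock genes 0 passed, 12 were on average higher in KO-labelled livers, and the median difference was 0.04; without both arrays numbered 3 it was 13 of 18 and 0.16. Among 15 clock-controlled output genes 0 passed, and the 3 of smallest p were Fbxl21, Avpr1a and Wee1, at 0.41, 0.62 and 0.39.

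Genes of fatty acid synthesis tended to the higher side at ZT16. Of 18 measured SREBP1 target and fatty acid synthesis genes 0 passed the threshold and 17 were on average higher in KO-labelled livers, against 47.7% of all tested genes, with a median difference of 0.21 against -0.01. Gpam, which starts triglyceride synthesis, differed by 0.35 ± 0.13 (SE, n = 3 per group, limma adjusted p = 0.46). Acss2, which makes acetyl-CoA from acetate, was at 11.37, 11.12 and 11.22 in WT and 11.38, 11.79 and 11.73 in KO-labelled arrays, with a gap of 0.01. Fads1, a fatty acid desaturase, differed by 0.18 ± 0.08. The list mean was 10.81, 10.79 and 10.82 in WT and 10.82, 11.36 and 10.98 in KO-labelled arrays, so that KO-labelled array 1 was at the WT level and array 2 held most of the difference. Over the other 5 times 4 of the 18 genes had the higher KO-labelled mean and the median was -0.11; without both arrays numbered 3 at ZT16 it was 16 of 18 and 0.25.

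Cholesterol synthesis genes gave smaller values that turned with the arrays used. Of 19 measured SREBP2 target genes 0 passed, 14 had the higher KO-labelled mean and the median was 0.08, but without both arrays numbered 3 it was 6 of 19 and -0.06. Over the other 5 times 0 of the 19 had the higher KO-labelled mean and the median was -0.17. Sc5d, a late desaturase of the pathway, was at 11.84, 11.82 and 11.68 in WT and 11.92, 12.04 and 11.98 in KO-labelled arrays, a difference of 0.20 ± 0.09 (SE, n = 3 per group, limma adjusted p = 0.57). Over the other times Sc5d was lower in KO-labelled livers and past the threshold, at -0.16 ± 0.04 (limma adjusted p = 0.031). The difference between ZT16 and the other times, 0.36 ± 0.10, had one of the 3 smallest p of all genes in that test and did not pass after adjustment. Lss, which closes the sterol ring, was at 10.11, 9.91 and 9.65 in WT and 10.16, 10.44 and 10.33 in KO-labelled arrays (limma adjusted p = 0.66).

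PPARA targets and fatty acid oxidation genes also lay to the higher side. Of 15 measured PPARA targets 0 passed, 11 had the higher KO-labelled mean and the median was 0.34; over the other times it was 9 of 15 and 0.02, and without both arrays numbered 3 at ZT16 it was 12 of 15 and 0.41. Cyp4a31, a relative of Cyp4a14, was at 6.62, 6.83 and 6.71 in WT and 9.83, 7.44 and 7.05 in KO-labelled arrays, so that 1 array carried most of its difference of 1.39 ± 0.54 (SE, n = 3 per group, limma adjusted p = 0.47). Acot2, a mitochondrial acyl-CoA thioesterase, differed by 0.56 ± 0.29 with overlapping groups. The list mean was 7.72, 7.92 and 8.25 in WT and 8.51, 8.71 and 8.89 in KO-labelled arrays, and the groups did not overlap. Cyp4a14, whose difference of 5.08 was the largest of the list, enters this mean. The mean without Cyp4a14 was not computed, so the separation is not shown for the list as a whole. Of 27 genes of fatty acid uptake and oxidation 0 passed and 22 had the higher KO-labelled mean, with a median of 0.14, against 13 of 27 and -0.01 over the other times; Acadl, a dehydrogenase of beta-oxidation, differed by 0.41 ± 0.15 and Eci1, an enoyl-CoA isomerase, by 0.33 ± 0.15. In the respiratory chain 22 of 27 genes had the higher KO-labelled mean, with a median of 0.09 and no gene past the threshold, against 9 of 27 and -0.02 over the other times; Cox10, a haem-synthesis step for complex IV, differed by 0.30 ± 0.10. In amino acid breakdown and the urea cycle it was 24 of 30 genes, with a median of 0.08, against 7 of 30 and -0.08 over the other times; Aldh4a1 and Prodh, consecutive enzymes of proline breakdown, differed by 0.33 and 0.38. Without both arrays numbered 3 the higher mean was in KO-labelled livers for 24 of 27 fatty acid uptake and oxidation genes (median 0.21), 25 of 27 respiratory chain genes (0.11) and 24 of 30 amino acid breakdown genes (0.10). Without WT array 3 the medians were 0.61 for PPARA targets and 0.26 for fatty acid uptake and oxidation. Both arrays numbered 3 were above the other 4 in 12 of 27 fatty acid uptake and oxidation genes and 5 of 15 PPARA targets. It was 4 of 27 respiratory chain and 2 of 30 amino acid breakdown genes, against 8.78% of all genes. The list mean of fatty acid uptake and oxidation overlapped, at 10.09, 10.18 and 10.36 in WT and 10.21, 10.38 and 10.38 in KO-labelled arrays.

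Genes of protein folding lay to the lower side. Of 21 measured genes of endoplasmic reticulum folding and the unfolded protein response 0 passed and 20 had the lower mean in KO-labelled livers, against 52.3% of all tested genes, with a median of -0.17. Syvn1, the ubiquitin ligase that clears misfolded proteins, was at 10.24, 10.08 and 9.64 in WT and 9.84, 9.30 and 9.32 in KO-labelled arrays, a difference of -0.50 ± 0.19 (SE, n = 3 per group, limma adjusted p = 0.46). Sel1l, its partner, was lower in every KO-labelled array, at 10.56, 10.38 and 10.44 against 10.70, 10.68 and 10.68. Xbp1, the transcription factor of the response, differed by -0.22 ± 0.12. The list mean was 10.84, 10.86 and 10.55 in WT and 10.81, 10.37 and 10.51 in KO-labelled arrays, with WT array 3 beside the low KO-labelled arrays and KO-labelled array 1 beside the high WT arrays. Of 16 heat shock genes 14 had the lower KO-labelled mean and 0 passed, with a median of -0.18; Hspb1, a small chaperone, differed by -0.61 and did not overlap, whereas Cirbp, the cold-inducible RNA-binding protein, differed by 0.48. Without both arrays numbered 3 the KO-labelled mean was higher in 1 of the 21 folding genes and 1 of the 16 heat shock genes, with medians of -0.20 and -0.27. Over the other times it was higher in 6 of 21 and 2 of 16, with medians of -0.04 and -0.08.

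**Figure D4:**
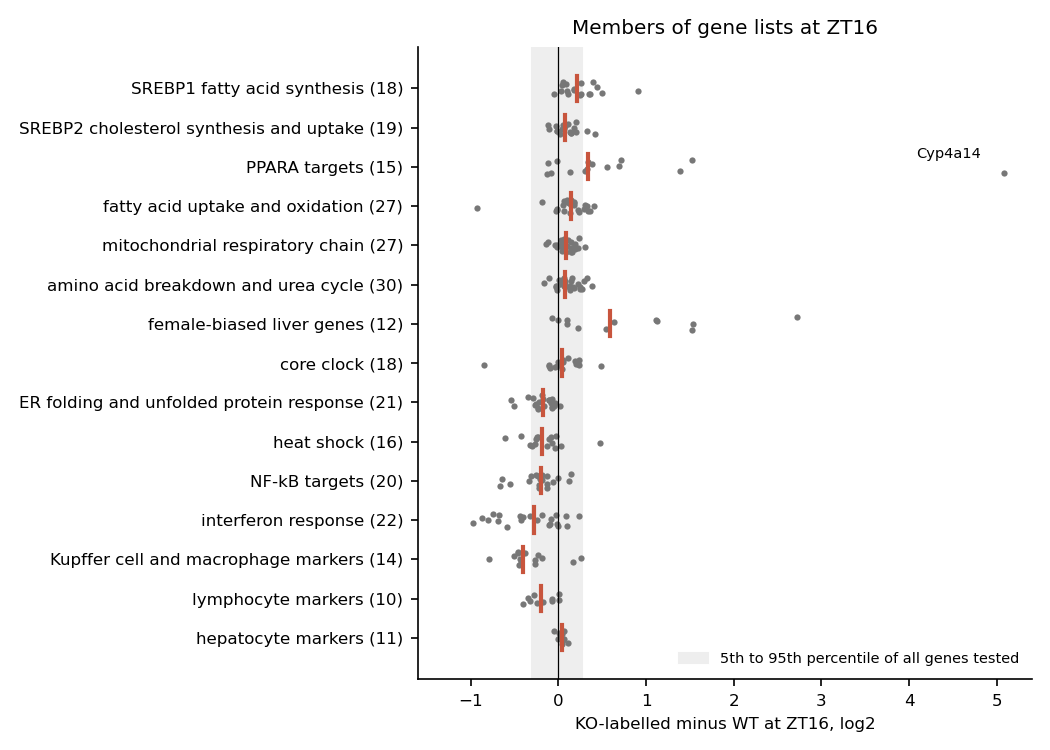
Difference at ZT16, KO-labelled minus WT in log2 units, for every tested member of 15 gene lists (number of members in brackets); each grey point is 1 gene, the red bar the list's median, and the shaded band the 5th to 95th percentile of all genes tested. Most of the list medians lie inside the band, and those of the PPARA targets (0.34), the female-biased genes (0.59) and the Kupffer cell markers (-0.40) lie outside it. Cyp4a14 at 5.08 lies far from every other member.

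Inflammatory lists and leukocyte markers had lower means in KO-labelled livers and followed the split between arrays. Of 20 NF-kB targets 18 and of 22 interferon response genes 19 had the lower KO-labelled mean, with medians of -0.20 and -0.28 and 0 past the threshold in either. Ifit3, an interferon-induced protein, was at 7.28, 7 and 7.16 in WT and 6.98, 6.88 and 6.86 in KO-labelled arrays (limma adjusted p = 0.72). Oas2, a sensor of viral RNA, was at 8.56, 8.26 and 6.60 in WT and 7.50, 7.09 and 5.92 in KO-labelled arrays. Of 14 Kupffer cell and macrophage markers 12 had the lower KO-labelled mean, with a median of -0.40, and Adgre1, a surface marker of macrophages, ranged from 8.80 to 10.83 in WT and from 8.60 to 9.99 in KO-labelled arrays. In 18 of the 20 NF-kB targets and 17 of the 22 interferon genes both arrays numbered 3 were below the other 4. Without those arrays the KO-labelled mean was higher in 1 of 20 NF-kB targets, 3 of 22 interferon genes and 2 of 14 Kupffer cell markers, with medians of -0.29, -0.31 and -0.50. Over the other times the medians were 0.18, 0.09 and 0.29. The part of leukocyte content in these values was not tested.

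Further lists held few large values. Of 20 genes of HIF1A signalling and glycolysis, a programme SIRT6 is known to restrain, 0 passed, 11 had the higher KO-labelled mean and the median was 0.02, or 10 and 0.00 without both arrays numbered 3; Pfkfb3, a regulator of glycolytic flux, differed by -0.40 ± 0.21 (SE, n = 3 per group, limma adjusted p = 0.68). Of 14 gluconeogenesis genes 12 had the higher KO-labelled mean, against 47.7% of all tested genes, with a median of 0.06, or 13 and 0.10 without those arrays. Over the other times it was 2 of 14 and -0.09, and for the HIF1A and glycolysis genes 6 of 20 and -0.04. Of 23 sirtuin and NAD genes Sirt6 alone passed; Sirt2 was higher in every KO-labelled array, by 0.16 ± 0.07 (limma adjusted p = 0.49). Genes with a known sex bias in liver included large values in both directions. Of 12 measured female-biased genes 11 had the higher KO-labelled mean, with a median of 0.59, or 0.31 with no filter on low values, and 10 of 12 and 0.52 without both arrays numbered 3; Cyp2a4, a steroid hydroxylase, was at 10.67, 10.67 and 10.87 in WT and 11.87, 12.19 and 11.47 in KO-labelled arrays. Of 23 male-biased genes 16 had the higher mean, with a median of 0.19, or 16 and 0.24 without those arrays, and Cyp2u1 was the 1 that passed. Over the other times it was 7 of 12 female-biased genes (median 0.14) and 12 of 23 male-biased genes (0.02). The Y-linked Kdm5d was between 7.77 and 8.36 in all 6 arrays. In bile acid synthesis and transport, Baat, which joins bile acids to amino acids, differed by -0.72 ± 0.25 and Cyp39a1, an oxysterol hydroxylase, by 1.48 ± 0.57, neither past the threshold. Of the 676 tested genes on the 42 lists, Sirt6 and Cyp2u1 were the 2 past the threshold.

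**Figure D5:**
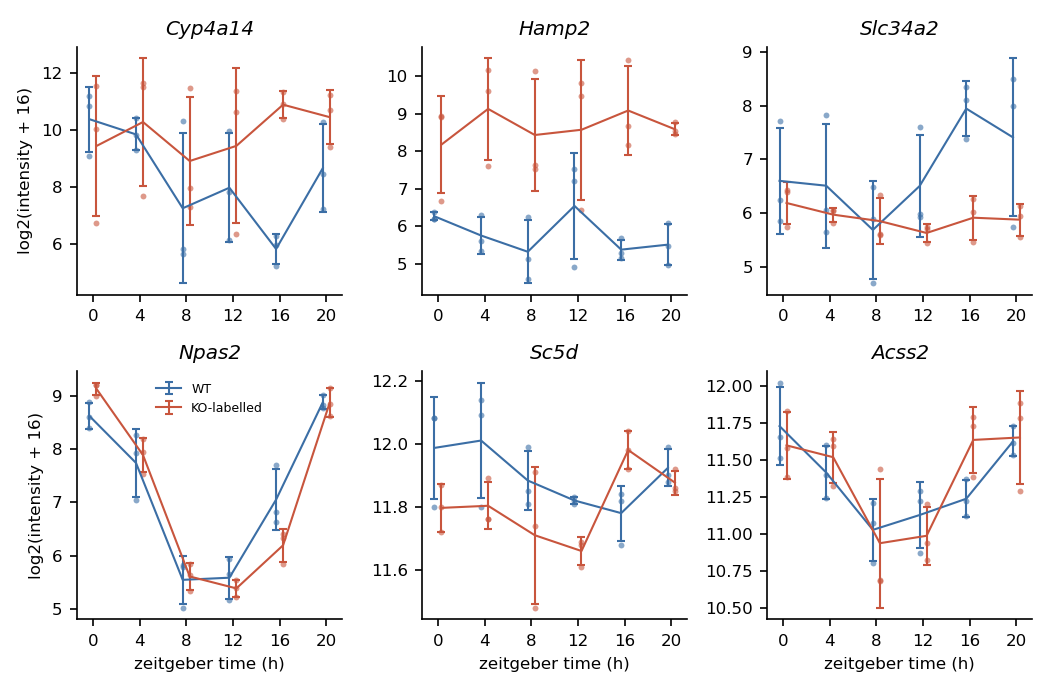
Levels of 6 genes over the day in the SIRT6 cohort, in log2(intensity + 16) against zeitgeber time in hours; points are arrays, lines join the means of 3 arrays and bars are 1 SD. Cyp4a14 and Slc34a2 are furthest apart at ZT16, and Hamp2 is higher in KO-labelled livers at every time. Npas2 has the lower KO-labelled mean at ZT16, without passing the threshold, like means at ZT20 and the higher KO-labelled mean at ZT0. Sc5d and Acss2 have the higher KO-labelled mean at ZT16 after a lower one at ZT12.

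The SIRT1 knockouts and their own WT were compared at the same time. In that cohort 0 of 13308 genes passed at ZT16, with 523 (3.93%) at an unadjusted limma p below 0.05, and for the 13 genes its differences lay between -0.51 and 0.13. The test of the SIRT6 effect minus the SIRT1 effect called 5 genes (0.0376%), all larger in the SIRT6 cohort, 23 with the replicate block and 6 without both arrays numbered 3. Rpp40 differed between the cohorts by 2.43 ± 0.41, Cuedc2 by 0.66 ± 0.12, Qpct by 1.31 ± 0.25 and Cox6b2 by 1.49 ± 0.30 (SE, n = 3 per group, limma adjusted p = 0.0037, 0.0040, 0.011 and 0.034). The fifth was Nt5dc2, a member of the nucleotidase family that missed the threshold in the SIRT6 cohort alone: it was at 8.55, 8.54 and 8.84 in WT and 9.40, 9.70 and 9.65 in KO-labelled arrays (limma adjusted p = 0.051), and differed between the cohorts by 1.37 ± 0.28 (limma adjusted p = 0.035). Cyp4a14 had values of opposite sign, 5.08 in the SIRT6 and -2.94 in the SIRT1 cohort, and the difference of 8.02 ± 1.90 had a limma adjusted p of 0.068. Cd36 had values of -0.93 and -1.07 in the SIRT6 and SIRT1 cohorts, neither past the threshold.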

How the data were processed

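The deposited table gives, per the labels, single-colour Affymetrix arrays of biotin-labelled liver RNA. Per the submitters' processing notes the authors used Affymetrix Expression Console 1.1.1 and PLIER 2.0; how they normalized and on which build is not stated in the labels. The deposited values are linear probe set intensity, judged from their range, with a median of 44.7 to 50.8 in the 6 ZT16 arrays. The number of arrays limits the precision. Every column matched 1 sample by name.

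Of 41345 probe sets, 23521 had 1 gene symbol in the platform annotation, 1814 several and 16010 none; the first were used, with the highest-mean probe set per gene. Values were taken as log2(value + 16), which understates the change of dim genes, and the lowest 40% of genes (under 6.00) were left out. limma 3.58.1 (R 4.3.3) fitted the 36 arrays of the SIRT6 cohort as 12 group means with a variance trend. Tests at ZT16 were adjusted over genes and times together; the other tests (ZT16 against the other 5 times, the other 5 times alone over 30 arrays, SIRT6 against SIRT1 effect over 72 arrays) over genes.

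Replicate numbers carry no stated pairing. At ZT16 the deviations of same-numbered WT and KO-labelled arrays from their group means correlated at 0.56, 0.19 and 0.70, all above 0.1. WT array 2 and KO-labelled array 1, of unlike number, correlated at 0.57, so these values do not settle a pairing by number. The main test has no block. Fits that pair arrays by number were run as an alternative, and the blocked values are printed where they change a call. At the other times the correlations of same-numbered arrays ran from -0.36 to 0.74.

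The members and the 42 gene lists were chosen with earlier results of these data known. Genes named are Sirt6, those past the threshold, the 10 largest non-overlapping differences in each direction, up to 3 members of smallest p per list, and those of the difference tests; predicted genes were counted, not named. The members of the call sets in the other settings (in the closing section) were named after their values were seen. The fit was tested on simulated levels with independent noise for each gene and array. The split between arrays seen at ZT16 was not simulated, so that test does not bear on it. Alternatives were other normalizations, pseudocounts, filters, blocks, weights, array sets and thresholds, and leaving out each array.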

Additional observations from a re-analysis of the deposited data

Results flagged for a closer look

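For 5 genes the difference between KO-labelled and WT livers at ZT16 was itself different between the SIRT6 and the SIRT1 cohort, by a limma test of the difference over all 72 arrays with Benjamini-Hochberg adjustment over 13308 genes. The log2 effect in the SIRT6 cohort exceeded that in the SIRT1 cohort by 2.43 for Rpp40, 1.49 for Cox6b2, 1.37 for Nt5dc2, 1.31 for Qpct and 0.66 for Cuedc2. In the SIRT1 cohort itself these genes differed by -0.51, -0.11, -0.43, -0.24 and -0.14. All 3 SIRT6 KO-labelled arrays lay above all 3 of their WT arrays in each of the 5 genes. The cohorts differ in strain label as well as in the gene deleted, and the 2 cannot be told apart.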

How the results depend on the processing

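The count of 13 genes at ZT16 became 8 with the lowest 60% of genes left out, 20 with the replicate block within each time, 241 (195 higher, 46 lower) with array weights, 1 with the 6 ZT16 arrays alone, 35 (33 higher, 2 lower) with all 72 arrays in the fit and 6 at a threshold of 0.01. Leaving out each array in turn gave 3 to 12 genes, and leaving out both arrays numbered 3, chosen after seeing the data, gave 4: Cox6b2, Cyp2u1, Sat2 and Snord104. The 2 lower genes under the replicate block at all times were Elfn1 (-0.63) and Phlda2 (-1.32). With the block at ZT16 alone, chosen after seeing the data, 15 genes passed, all higher, with all 13 among them, and neither Elfn1 nor Phlda2 passed. Quantile normalization gave 14 higher and 1 lower. The other settings kept the count within 1.5 times. Over the other 5 times the 777 genes became 2916 with array weights and 297 at a threshold of 0.01, and centring of array medians moved the split of 370 higher and 407 lower to 212 and 597.

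For the SIRT6 effect minus the SIRT1 effect, the 5 genes became 16 with quantile normalization, 8 with array medians centred, 9 with a pseudocount of 64, 8 with no filter, 23 with the replicate block, 591 with array weights, 8 with all probe sets and 2 at a threshold of 0.01; leaving out each array gave 3 to 13. The 2 list members past the threshold became 1 with array medians centred and without both arrays numbered 3, and 0 to 1 with each array left out. The ZT16 effect against the other times called 0 genes under every alternative run. No gene past the threshold at ZT16 reversed its direction, whereas the median of the SREBP2 list turned from 0.08 to -0.06 without both arrays numbered 3. The cause of these changes was not tested, except that fewer arrays or genes entered where some were left out.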

Other observations

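Besides 12 of the 13 genes, 8 passed in the limma fit with the replicate block at all times, 1 of them predicted; the 7 others were named after their values were seen. Higher in KO-labelled livers were Idh2, the mitochondrial NADP-dependent isocitrate dehydrogenase (0.44 ± 0.07), Tfpi, an inhibitor of blood coagulation (0.49 ± 0.09), Nop53, a ribosome assembly factor (0.26 ± 0.05), the interleukin receptor Il17rb (0.87 ± 0.16) and Hamp2 (3.72 ± 0.67). Lower were Elfn1 (-0.63 ± 0.10) and the imprinted gene Phlda2 (-1.32 ± 0.24). None of these 7 passed with the block at ZT16 alone, where the limma adjusted p was 0.085 for Hamp2, 0.26 for Elfn1 and 0.37 for Phlda2.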
